A study of Mus musculus with 2 samples.

Results

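The exocrine pancreas supplies the enzymes that digest food in the duodenum, and this account follows the mRNA of 32 pancreatic genes in proximal intestine with and without CD36, a membrane receptor that takes up long-chain fatty acids. The genes fall into lipases, proteases, other secreted proteins, regulators of acinar cells and islet hormones. A probe set was used only where the array's annotation gave it 1 gene symbol, and where a gene had several, the one with the highest mean of both arrays gave its value. By this rule 27 of the 32 genes were measured, out of 18194 genes on the array. Pnlip, Prss1, Try4, Try5 and Ins1 had no probe set of their own. The genes had been picked because earlier results from these same arrays showed many of them higher in the knockout, so their differences are a description and carry no test.

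The data were 2 Affymetrix arrays. The WT array held pooled RNA of 3 wild-type C57BL/6 mice, and the CD36KO array held pooled RNA of 3 mice of that strain with a germline deletion of Cd36 in all cells. Both genotypes ate chow freely under a 12-h light-dark cycle, and total RNA came from the upper part of the whole gut (labelled as the proximal section). No label states the age of the mice. Each genotype is 1 array of 1 pool, so there is no replicate error, no p-value is given, and no difference can be set against the spread between animals or arrays. Although both pools are labelled as proximal, the genes listed here as distal small intestine were higher and those listed as proximal lower in the CD36KO pool. In whole tissue, fewer cells of a type and less RNA per cell cannot be told apart.

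Acinar cells of the pancreas make digestive enzymes in very large amounts, most of them as inactive zymogens, and store them in granules until a meal. In the duodenum the brush border protease enteropeptidase activates trypsinogen, and trypsin then activates the other zymogens. Transcription of the enzyme genes depends on PTF1, a complex of the basic helix-loop-helix protein PTF1A, an E-protein partner and RBPJL. PTF1 binds a bipartite site made of an E-box and a so-called TC-box. BHLHA15 (MIST1) and the nuclear receptor NR5A2 also maintain the acinar state. These genes are textbook markers of pancreas, although some of them, such as Dmbt1, Gp2, Bhlha15 and Nr5a2, are also used by cells of the gut epithelium.

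Some promoters of the enzyme genes are shown because the genes differed together and because the factors of PTF1 are themselves among the genes measured. The 250 bases before the start of each gene are from RefSeq (GRCm38.p6), written 5′ to 3′ on the gene's strand. Capitals mark the E-box CACCTG and the TC-box TTTCCCA, searched on both strands, so that they also appear as CAGGTG and TGGGAAA.
Cel, chr2:28563404-28563653, - strand: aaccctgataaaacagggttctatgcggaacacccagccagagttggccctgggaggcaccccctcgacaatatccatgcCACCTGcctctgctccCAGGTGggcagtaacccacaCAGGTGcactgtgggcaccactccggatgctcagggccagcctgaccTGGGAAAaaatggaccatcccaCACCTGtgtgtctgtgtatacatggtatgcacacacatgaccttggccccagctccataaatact
Cela2a, chr4:141826006-141826255, - strand: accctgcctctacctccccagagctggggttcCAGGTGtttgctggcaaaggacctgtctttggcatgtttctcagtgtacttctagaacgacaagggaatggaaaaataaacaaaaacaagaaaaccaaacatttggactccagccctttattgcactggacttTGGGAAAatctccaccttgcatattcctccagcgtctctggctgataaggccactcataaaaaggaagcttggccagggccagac
Prss2, chr6:41521526-41521775, + strand: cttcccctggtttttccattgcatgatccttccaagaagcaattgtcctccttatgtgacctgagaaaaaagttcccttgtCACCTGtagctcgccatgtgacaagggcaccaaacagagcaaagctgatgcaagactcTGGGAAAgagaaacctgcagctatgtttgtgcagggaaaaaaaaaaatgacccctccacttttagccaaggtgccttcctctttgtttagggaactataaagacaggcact
Cpa1, chr6:30638968-30639217, + strand: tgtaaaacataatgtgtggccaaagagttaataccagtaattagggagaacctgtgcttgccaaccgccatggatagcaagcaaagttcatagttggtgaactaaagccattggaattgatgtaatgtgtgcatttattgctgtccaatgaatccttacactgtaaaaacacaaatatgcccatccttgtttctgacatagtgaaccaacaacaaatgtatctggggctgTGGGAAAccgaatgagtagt
Pnliprp2, chr19:58759473-58759722, + strand: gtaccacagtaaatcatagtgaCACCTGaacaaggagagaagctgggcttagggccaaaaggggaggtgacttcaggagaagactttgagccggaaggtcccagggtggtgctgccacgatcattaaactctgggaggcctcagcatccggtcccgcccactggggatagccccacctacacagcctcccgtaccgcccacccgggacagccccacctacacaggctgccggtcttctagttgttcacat
Cel, Cela2a and Prss2 were chosen because they held both motifs, and Pnliprp2 because its difference was the highest among the lipases. Cpa1 was chosen as a promoter with the TC-box alone, and that of Ctrb1, not shown, also held the TC-box alone. In Cel the TC-box lay 87 to 81 bases before the start, with an E-box at 65 to 60. In Prss2 the TC-box lay 111 to 105 bases before the start and the E-box 169 to 164. In Cela2a the TC-box lay at 85 to 79 and the E-box much farther away, at 218 to 213. The TC-box of Cpa1 lay close to the start, at 20 to 14 bases.

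RefSeq's table held a promoter for 18 of the 21 measured genes of secreted exocrine proteins. Of these, 5 held the TC-box (27.8%), against 6.82% of all 32851 promoter windows of that length. The units differ, since a gene counted if any of its windows held the motif, while the background counted each window. The E-box was in 10 of the 18 (55.6%), against 17.2% of all, and both motifs were in 3 (16.7%), against 1.17%. The distance between the motifs was not limited, so a promoter with both need not hold a bipartite PTF1 site. A match is a run of letters and no evidence of binding in these samples. The TATA-like string TATAAA was in Cela1, Prss2, Prss3 and Gp2, which is 22.2% of the 18 against 12.4% of all windows.

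The mRNAs of digestive enzymes were higher in the CD36KO pool across lipases and proteases alike. None of the 4 measured regulators or 2 measured islet hormones reached 2-fold, but nothing is read from this. Few genes of the array passed 2-fold, so a set this small would mostly hold none. Ptf1a and Rbpjl also lay under the expression filter, given below, in both pools, and Iapp passed it in WT alone. Of the 21 measured genes of secreted exocrine proteins, 18 passed 2-fold upward in CD36KO and 0 passed it downward. The background for that count was 1.61% of the 11981 genes above the expression filter, and nothing is read from the contrast because it chose the genes. The expression filter kept a gene whose higher value reached 4.51 (log2), which is where the higher of the paired values has its median across the whole array. All 21 genes passed it, 20 of them on both arrays and Prss3 on the CD36KO array alone. Of the 20 at or above the filter in WT, 17 were at least 2-fold higher, beside 1.33% of the 11691 genes at or above the filter in WT. The median difference was 1.57 (log2), a 2.97-fold higher value, beside -0.01 over all genes above the filter. The middle of the enzyme distribution, from its 25th to its 75th percentile, ran from 1.34 to 1.93, and that of all genes from -0.19 to 0.19.

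**Figure D1:**
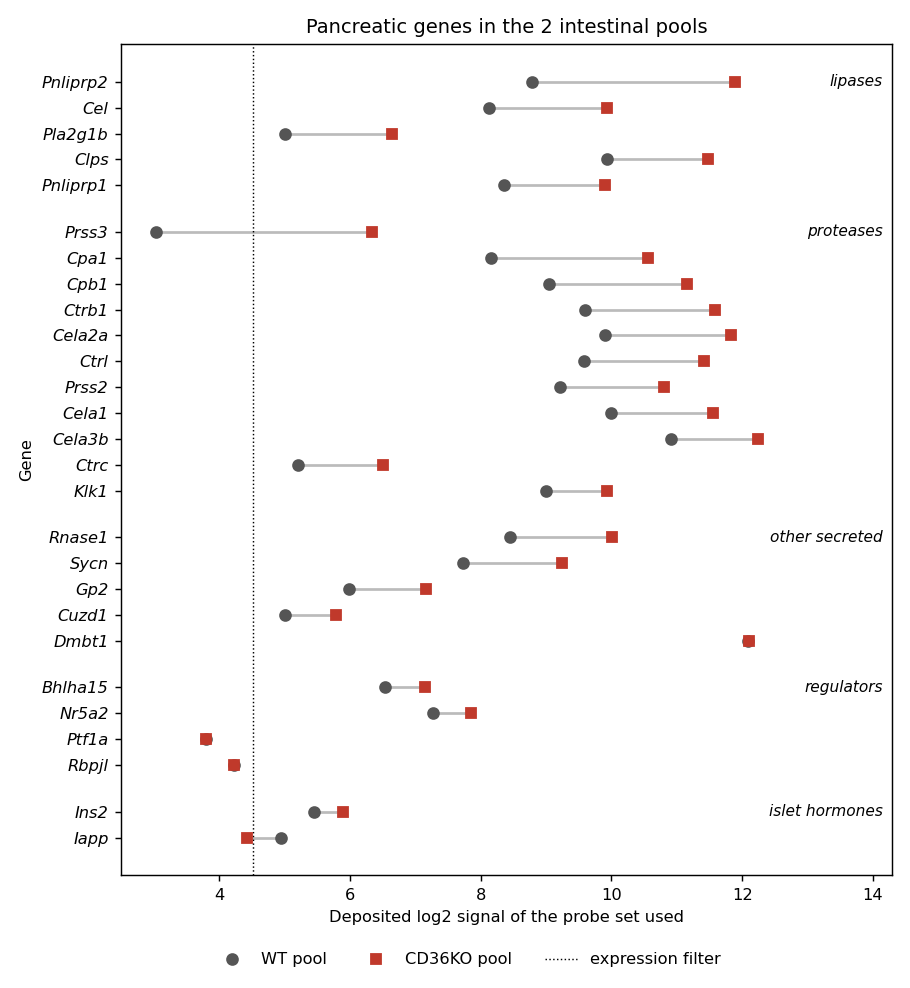
Deposited log2 signal (x axis) of the 27 measured genes (y axis, grouped by role) in the WT pool (circles) and the CD36KO pool (squares), 1 array each with no error bars; the dotted line is the expression filter at 4.51. Lipases and proteases lie to the right in CD36KO by 0.93 or more, while Dmbt1, Ptf1a and Rbpjl overlap between pools and Iapp lies to the left.

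Fat digestion in the gut lumen needs a lipase, its cofactor and enzymes for phospholipids and sterol esters. All 5 measured genes of this group were at least 2-fold higher in CD36KO, beside 1.61% of the genes above the filter. Nothing is read from that contrast, because it chose the genes. Pnliprp2, a lipase of galactolipids and phospholipids, read 8.79 in WT and 11.89 in CD36KO (log2 signal), 8.61-fold higher. Its second probe set differed by 2.88. Its coding neighbour on chromosome 19, Pnliprp1, a relative with little known lipase activity, read 8.35 and 9.90 and was 2.92-fold higher. Both genes thus differed in one direction but by unequal amounts, and Pnlip, which lies beside them and encodes the main triglyceride lipase, was not measured.

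Cel, the bile salt-activated lipase that cleaves cholesterol esters, read 8.12 in WT and 9.93 in CD36KO, 3.50-fold higher. Clps, the colipase that anchors pancreatic lipase to the fat droplet, read 9.93 and 11.48, 2.93-fold higher, and its second probe set differed by 2.22. Both Clps probe sets were therefore past 2-fold, with the larger difference at the one not used. Pla2g1b, the pancreatic phospholipase A2, read 5.005 and 6.637, 3.10-fold higher. Its other probe sets differed by 0.99, 0.42 and -0.07, and the readings of 0.42 and -0.07 came from signals below the filter on both arrays. Pla2g1b was the one gene of this group whose probe sets did not share a direction.

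The proteases were higher in each enzyme class. Among the carboxypeptidases, which trim peptides from the carboxyl end, Cpa1 read 8.16 in WT and 10.56 in CD36KO, 5.29-fold higher. Cpb1, which prefers basic residues, read 9.05 and 11.15, 4.30-fold higher. These were the largest protease differences after Prss3. Of the chymotrypsins, Ctrb1 read 9.60 and 11.59, 3.96-fold higher, and the chymotrypsin-like Ctrl read 9.58 and 11.41, 3.56-fold higher. Ctrc, which also degrades trypsinogen, read 5.20 and 6.51, 2.48-fold higher and the smallest of the class.

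The elastases were 2.53-fold to 3.80-fold higher. Cela2a read 9.91 in WT and 11.83 in CD36KO, 3.80-fold higher, and Cela1 read 10.00 and 11.55, 2.94-fold higher. Cela3b read 10.91 and 12.24, 2.53-fold higher. All 4 probe sets of Cela3b were past 2-fold, from 1.34 to 2.02, and the one used gave the smallest difference. Klk1, tissue kallikrein, was the one measured protease under 2-fold, at 8.99 in WT and 9.93 in CD36KO (1.91-fold higher). Its 4 probe sets spread from 0.16 to 1.05, and the Klk1 family has many similar copies whose signal they may share.

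The trypsins activate all other zymogens and come from a tandem array of related genes on chromosome 6. Prss2, an anionic trypsin, read 9.21 in WT and 10.81 in CD36KO, 3.04-fold higher, and its 4 probe sets each differed by 1.60 or more. Prss3 read 3.03 and 6.33, 9.86-fold higher, but its WT value was under the filter, so that the fold depends on an unknown background. 2210010C04Rik, a trypsin-like gene that is not among the 32 genes and lies at the other end of the array of 9 coding genes, read 9.81 and 11.26 and was 2.74-fold higher, and each of its 3 probe sets differed by 1.32 or more. Trypsin genes are alike in sequence, so their probe sets may share signal.

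Probe sets annotated to several genes were left out of every count, but they bear on genes with none of their own. The one listed for both Try4 and Try5 read 9.45 in WT and 11.56 in CD36KO, a difference of 2.11. The one listed for Prss1, Prss3 and the trypsin-like genes Gm5771 and Gm10334 read 3.87 and 7.85, a difference of 3.98 from a WT value under the filter. The one listed for Cela3a and Cela3b differed by 1.55. The one listed for 5 pancreatic amylase genes, whose product digests starch, read 11.67 and 12.59, a difference of 0.92. None of these values can be given to a single gene.

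**Figure D2:**
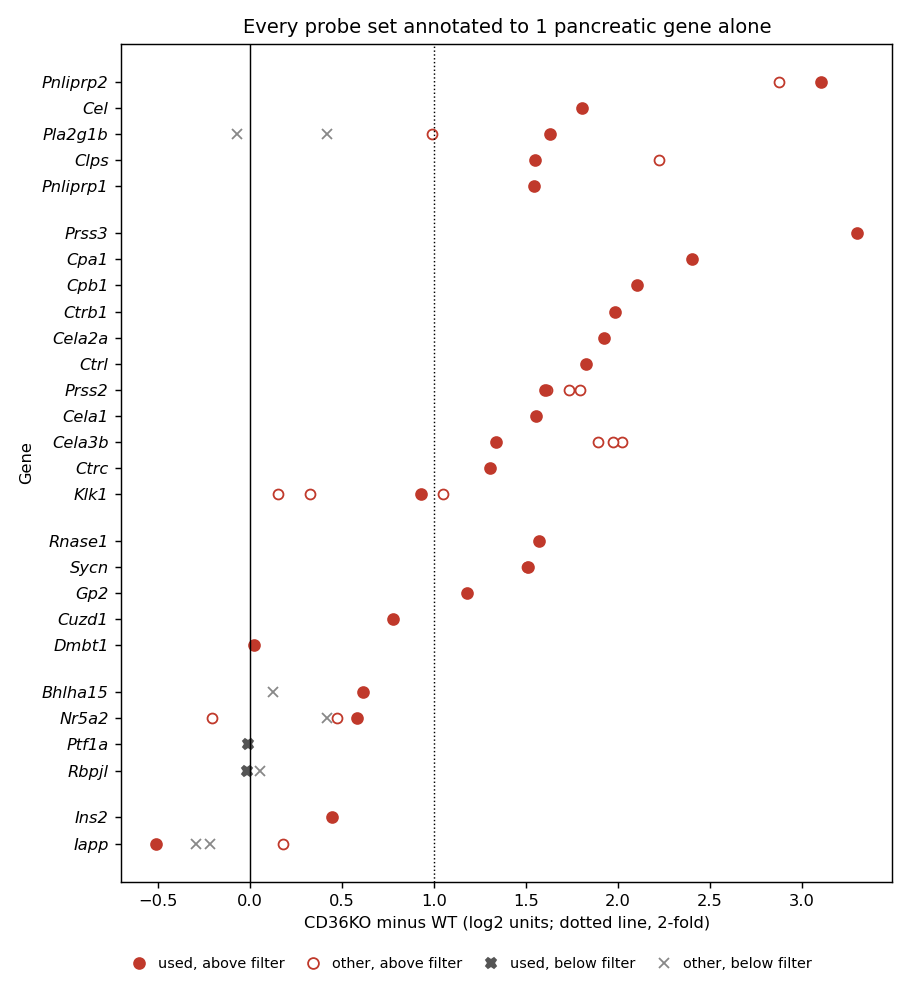
Difference CD36KO minus WT in log2 units (x axis) at each probe set annotated to 1 of the 27 measured genes alone (y axis, in the order of roles); filled symbols are the probe sets used, open circles the others, and crosses signals below the filter on both arrays. Of the 36 probe sets of secreted exocrine proteins, 28 lie at or past 2-fold (dotted line) and 1, of Pla2g1b, lies below 0.

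The secreted proteins that are neither lipases nor proteases differed less evenly. At least 2-fold higher were 3 of 5, beside 1.61% of the genes above the filter. Rnase1, the pancreatic ribonuclease, read 8.44 in WT and 10.02 in CD36KO, 2.97-fold higher. Sycn, syncollin of the zymogen granule membrane, read 7.73 and 9.25, 2.86-fold higher, and its second probe set differed by 1.51 as well. Both differences lay within the range of those of the enzymes. Gp2, the main glycoprotein of zymogen granule membranes and also a surface marker of M cells over Peyer's patches, read 5.99 and 7.16, 2.26-fold higher. Cuzd1, a granule membrane protein, read 5.01 and 5.79, 1.71-fold higher and so under 2-fold. Dmbt1, a scavenger glycoprotein that the gut epithelium itself secretes, read 12.08 and 12.11, a difference of 0.02.

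Agreement between probe sets of one gene was checked over the 7 exocrine genes that had several. Pnliprp2, Clps, Cela3b, Prss2 and Sycn were past 2-fold at every probe set, which makes 5 of 7, and Pla2g1b and Klk1 were not. Over single probe sets, 28 of 36 were at least 2-fold higher, beside 0.982% of all 45101 probe sets. The summed linear signal of the probe sets used went from 2054 in WT to 8689 in CD36KO for the lipases, a ratio of 4.23. For the proteases it went from 7402 to 24026, a ratio of 3.25, and for the other secreted proteins from 4997 to 6254, a ratio of 1.25. Dmbt1 makes up most of the last sum.

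The regulators of acinar identity did not reach 2-fold, as was true of most genes on the array. Ptf1a, the factor that commits cells to the acinar fate, read 3.80 in both pools, and Rbpjl, its partner in acinar cells, read 4.23 in WT and 4.22 in CD36KO. Both were under the filter, and the second Rbpjl probe set differed by 0.06. The table gives no background or detection call, so it is not known whether these low values hold signal from either gene. The TC-boxes and E-boxes shown above say nothing about their levels. Bhlha15, which organises the secretory apparatus of acinar and other secretory cells, read 6.54 and 7.15, 1.53-fold higher. Its second probe set, under the filter, differed by 0.13.

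Nr5a2, a receptor that works in acinar cells and in intestinal crypts, read 7.26 in WT and 7.85 in CD36KO, a difference of 0.58. Its other probe sets differed by 0.48, 0.42 and -0.20, so they do not share a direction. Of the regulators above the filter, Bhlha15 and Nr5a2, 1 of 2 was past 1.5-fold, Bhlha15, beside 5.31% of the genes above the filter at least 1.5-fold higher.

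The islet hormones showed no common direction. Ins2, insulin of the beta cell, read 5.45 in WT and 5.90 in CD36KO, 1.37-fold higher at its single probe set. Iapp, the amyloid polypeptide released with insulin, read 4.94 and 4.43, 1.42-fold lower, and passed the filter in WT alone. Its other probe sets differed by -0.29, -0.22 and 0.18. Both hormones lay within 1.5-fold, and Ins1 had no probe set of its own.

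Of a further list of islet genes, 4 of 10 measured were above the filter. Gcg, which intestinal L cells express as well, was 2.07-fold higher, and Pdx1, a factor also of the duodenal epithelium, was 2.40-fold lower, though -0.0004 at its second probe set. Sst differed by -0.29 and Pax6 by -0.11. The pancreatic polypeptide Ppy, and the islet genes Nkx6-1, G6pc2, Slc30a8, Ucn3 and Isl1, were under the filter in both pools. The islet list had a median of -0.20 above the filter.

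Other genes of acinar tissue did not all share the difference of the enzymes. Of 27 on this list, 19 were measured, 13 were above the filter, and 5 of these were at least 2-fold higher. The background was 1.61% of the genes above the filter, and the list was chosen with earlier results of these data known. Reg2, a secreted lectin of regenerating pancreas, read 5.96 in WT and 9.73 in CD36KO, 13.7-fold higher. Pdia2, the protein disulfide isomerase of pancreas, read 4.91 and 7.59, 6.39-fold higher. Tmed6 read 3.88 and 5.95, 4.20-fold higher from a WT value under the filter. Nupr1, a stress-induced nuclear protein found in many tissues, was 3.12-fold higher, and 2210010C04Rik, given above, was the other.

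A further 7 genes of the list above the filter lay within 1.5-fold. Zg16, a granule lectin shared with goblet cells, read 13.69 in WT and 13.71 in CD36KO. Reg1, the founding member of the Reg lectins, read 12.78 and 12.38, and Dnase1, a secreted nuclease, read 11.55 and 11.28. Slc39a5, a zinc transporter, differed by 0.06, Reg3d by 0.17, Gatm by 0.29 and Aqp12 by -0.22. The median of the list was 0.17 above the filter. Which cells of the whole tissue gave these signals is not known. Amy1, Erp27, Gnmt, Serpini2, Cckar and Fgf21 were under the filter in both pools.

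Tmprss15, on that list although its product enteropeptidase is made by duodenal enterocytes and not by the pancreas, differed in the other direction. It read 7.15 in WT and 6.26 in CD36KO, 1.86-fold lower. Enteropeptidase is the activator of the trypsinogens, whose mRNAs were higher in the same pool. Trpv6, a duodenal calcium channel whose gene is separated from Prss2 by 1 coding gene, Ephb6, read 6.31 and 5.15, 2.23-fold lower.

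Inhibitors that guard against early activation were examined on a short list, since none was among the 32 genes. Spink1, the trypsin inhibitor packed into zymogen granules and also made by the intestine, read 12.43 in WT and 12.32 in CD36KO, a difference of -0.11. Serpini2 read 2.99 and 3.05 and Itih4 read 3.02 and 2.94, all under the filter. Serpina1a had no probe set of its own. The inhibitors thus gave 1 gene above the filter, and it did not share the difference of the proteases.

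The machinery that folds and exports zymogens is shared with many secretory cells, and none of its genes passed 2-fold at the probe set used. All 16 genes of this list were above the filter, and their median difference was 0.13, beside 1.57 for the secreted proteins. Rab27b, a granule GTPase, was 1.58-fold higher, and Sdf2l1, an endoplasmic reticulum chaperone partner, was 1.53-fold higher. The other granule GTPase, Rab3d, was 1.34-fold higher, and Syt1 was 1.31-fold higher. A probe set of the translocon gene Sec61a1 that was not used was 2.08-fold higher, above the filter on both arrays, while the one used differed by 0.17. Probe sets of Rab27b spread from 0.02 to 1.34 and those of Rab3d from 0.12 to 0.91.

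Markers of pancreatic duct, which drains the enzymes, gave no common direction. Of 8 measured, 7 were above the filter, with a median of 0.05. Krt7 was 1.93-fold and Krt19 1.63-fold higher, both keratins of simple epithelia. Car2, a carbonic anhydrase, differed by -0.58 and Muc1 by -0.36. The duct factor Onecut1 was under the filter in both pools.

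**Figure D3:**
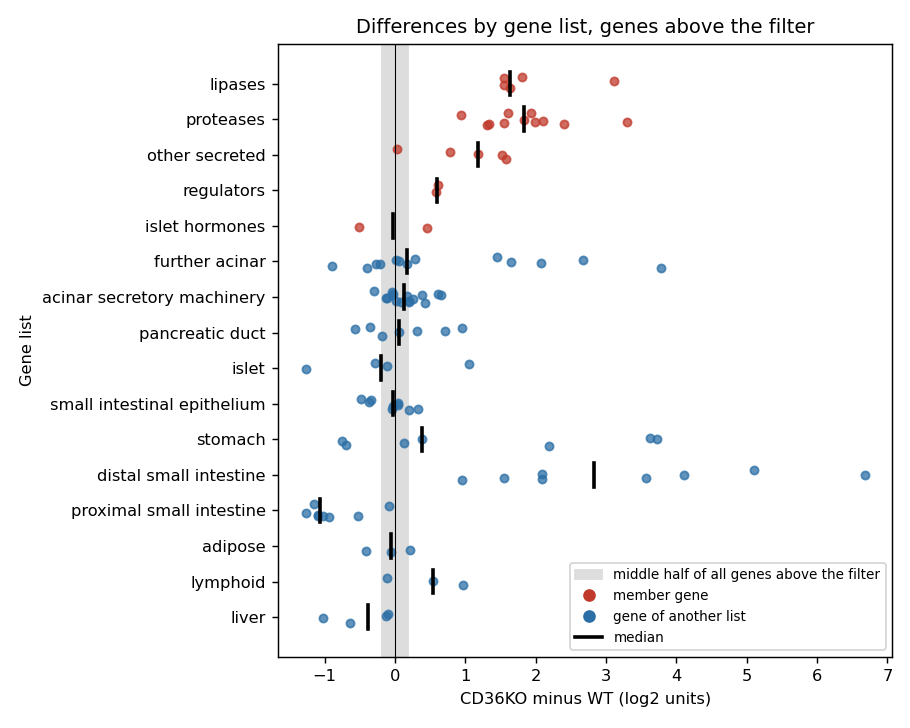
Difference CD36KO minus WT in log2 units (x axis) of the genes above the filter in each list (y axis); points are genes, black bars are list medians, and the grey band runs from the 25th to the 75th percentile of all 11981 genes, -0.19 to 0.19. Lipases (median 1.63), proteases (1.83) and distal small intestine genes (2.82) lie to the right, and proximal small intestine genes (-1.06) to the left.

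The labelled tissue was present in both pools. All 9 measured epithelial markers of small intestine were above the filter on both arrays, and their differences stayed within 1.5-fold. The largest were -0.48 at Lct, -0.37 at Alpi, -0.34 at Cdx2 and 0.33 at Epcam. Vil1 read 12.32 in WT and 12.30 in CD36KO, and Fabp2 read 13.58 and 13.54. Cd36 read 7.68 in WT and 6.02 in CD36KO, 3.17-fold lower but still above the filter in the knockout pool. Its other probe sets read 7.70 and 5.87, and 4.74 and 3.52. No source used here places these probe sets inside or outside the deletion, so they may not check the labels.

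Markers of other gut positions differed between the pools beside the enzymes. Of 8 distal small intestine genes, 7 were at least 2-fold higher, beside 1.61% of the genes above the filter. Among them, Fgf15 and Slc10a2 passed the filter on the CD36KO array alone. The largest differences were 6.67 at Fabp6, 5.10 at Gsdmc2, 4.11 at Fgf15 and 3.56 at Tmigd1. The list had a summed linear signal of 1298 in WT and 14255 in CD36KO, and Fabp6 makes up most of the latter. Of 8 proximal genes, 5 were at least 2-fold lower, beside 0.626% of the genes above the filter. The distal and proximal lists were chosen with earlier results of these data known, so nothing is read from either contrast. The proximal list had a summed signal of 9900 in WT and 6972 in CD36KO. Of 7 stomach genes above the filter, Gkn1 (13.3-fold), Gkn2 (12.4-fold) and Tff1 (4.55-fold) were higher, while Gkn3 and Tff2 differed by -0.76 and -0.70. At the probe sets not used, Gkn1 differed by 4.64 and Gkn3 by -1.25. The stomach list summed to 8268 and 8597, and of its acid and pepsinogen genes Atp4b read 5.81 in WT and 5.94 in CD36KO, while Atp4a and Pgc were under the filter on both arrays. The part of these positional and tissue differences in the enzyme result was not tested.

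The 3′ to 5′ balance of control RNAs also differed between the pools. For beta-actin, signal at the 3′ control probe set exceeded that at the 5′ one by 2.28 (log2) in the WT pool and by 1.34 in the CD36KO pool, and for Gapdh by 1.28 and 0.71. The spiked hybridization controls were lower in CD36KO at all 18 probe sets, by a median difference of -0.28, and the poly-A controls at 23 of 24, by -0.57. Array medians were 4.38 in both pools. The part of these measures in the enzyme result was not tested.

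The size of the enzyme differences varied by gene. From Cpa1 at 2.40 down to Ctrc at 1.31, 15 of the 21 genes lay in one stretch. Prss3 and Pnliprp2 stood above it, at 3.30 and 3.11, and Gp2, Klk1, Cuzd1 and Dmbt1 stood below it. At 3-fold, 10 of the 21 genes were past the threshold, beside 0.593% of the genes above the filter. Within the 193 genes above the filter that were at least 2-fold higher, 18 encoded these exocrine proteins, or 23 with the further acinar genes. Among all 11981 genes above the filter, 21 were such exocrine genes and 13 were further acinar genes. Both sets were chosen with earlier results of these data known, so nothing is read from these counts.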

How the data were processed

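Messenger RNA of proximal intestine was measured on 2 arrays, 1 pool of 3 mice per genotype, from 100 ng of total RNA per the labels' protocols. The authors deposited 1 table of 45101 probe sets as log2 signal. The unit was read from the values, which run from 1.79 to 14.19. No source used here states how signals were summarized or normalized, and the table has no detection calls.

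Probe sets were named from the platform annotation, in which 34958 had 1 symbol, 932 several and 9211 none. The RefSeq table of GRCm38.p6 held 34754 of these identifiers and changed 0 symbols. That table gave names and neighbouring genes only, and promoter sequences came from RefSeq's promoter table of the same assembly. The difference computed was CD36KO minus WT of the deposited log2 values, without a test. Called means past 2-fold.

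Named were all 32 members with every probe set, all measured genes of the further acinar and inhibitor lists, and up to 4 genes with the largest difference in other lists. More were named from the islet, duct, small intestinal epithelium and other lists after their values were seen. The members and lists were chosen with earlier results of these data known. Alternatives covered scaling, the probe set used, the filter and the threshold. The fold counting was tested on simulated data. The software was matplotlib 3.10.9, statsmodels 0.14.6, pandas 2.3.3 and NumPy 2.4.6 under Python 3.11.15. With 2 arrays, precision is limited by their number.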

Additional observations from a re-analysis of the deposited data

How the results depend on the processing

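The count of exocrine genes at least 2-fold higher (18 of 21) lay between 16 and 20 under median centring, quantile normalization, removal of a lowess trend, another choice of probe set, no filter, a 75th percentile filter, a filter on the WT value and a 1.5-fold threshold. The 16 were of 18 genes kept by the 75th percentile filter. The 20 were of 21 at 1.5-fold, beside 5.31% of the genes above the filter. It was 17 of 20 with the mean over probe sets, the probe set of smallest absolute difference or the filter on the WT value. With the probe set of highest WT value it was 17 of 21. At 3-fold it was 10 of 21. The median difference of 1.57 lay between 1.55 and 1.59 under those scalings, filters and single probe set choices, and was 1.75 with the mean over probe sets. The count over the whole array was 193 at 2-fold, 636 at 1.5-fold and 71 at 3-fold, all higher in CD36KO. The count of further acinar genes was 4 or 5 under every alternative run. Pla2g1b had a difference of -0.067 with the probe set of smallest absolute difference, 0.74 with the mean over probe sets and 0.99 with the probe set of highest WT value. No other member changed its side of 2-fold under the scaling and probe set alternatives. No paired analysis was possible because each genotype has 1 array, and no replicate could be left out for the same reason. Without a measured background, how much signal lies under 4.51, where Ptf1a and Rbpjl read, is not known.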

Other observations

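Markers of adipose tissue and lymphoid tissue differed in both directions, while the 4 liver markers above the filter were all lower in CD36KO. Of the adipose markers, Adipoq read 6.67 in WT and 6.62 in CD36KO, Retn differed by -0.41 and Fabp4 by 0.22, and Lep was under the filter in both pools. Of the liver markers, Ttr, which islet cells and liver both make, was 2.03-fold lower (from -1.37 to -0.14 over its 4 probe sets). Alb was 1.56-fold lower and passed the filter in WT alone, and Apoa2 differed by -0.10. Cps1, which liver and small intestine share, read 11.23 and 11.10. Of the lymphoid genes, Cxcl13, the chemokine of B cell follicles, was 1.96-fold higher at the probe set used (0.86 at the other), Cd79a of B cells was 1.46-fold higher, and Cd3e of T cells differed by -0.12.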
